A study of Mus musculus with 30 samples.

Results

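The type I interferon-stimulated genes described here are 36 named mouse genes that cells switch on when they sense type I interferon. They were chosen by name, and all 36 had a row among the 24957 genes of both the spleen and the lymph node tables of the series. They fall into 12 antiviral effectors, 3 genes of the ISG15 pathway, 5 PARP-family genes and partners, 7 PYHIN, TRIM and nuclear proteins, and 9 further genes.

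The series measured polyA-selected RNA in whole spleen and lymph node of WT mice, called FVB in the sample titles, and of Pad2-/- and Pad4-/- mice, which lack peptidylarginine deiminase 2 or 4, enzymes that turn arginine in proteins into citrulline. Of the 18 spleens, 9 were controls, called naive in the source names, and the others came from mice given imiquimod, an agonist of the RNA sensor TLR7 used to bring on lupus-like disease. Each of the 6 spleen groups (WT, Pad2-/- and Pad4-/-, control and imiquimod) held 3 libraries. Each of the 3 lymph node groups (WT, Pad2-/- and Pad4-/-, all given imiquimod) held 4 libraries, and the lymph node had no control group. The labels give no age, dose or length of treatment. They also do not say that the libraries came from separate mice, so the p-values reflect how far these libraries scatter and not necessarily how far mice do.

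In the signalling pathway behind these genes, type I interferons bind the receptor chains Ifnar1 and Ifnar2, the kinases Jak1 and Tyk2 then pass the signal on, and a complex that holds Stat2 and Irf9 binds a DNA element called the interferon-stimulated response element. TLR7 feeds into the same pathway, since plasmacytoid dendritic cells answer its ligands with type I interferon. A raised level of interferon-stimulated genes in blood is a known mark of human lupus.

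To show the element itself, the promoter windows of RefSeq (GRCm38.p6, 250 bases before to 50 after an annotated start, 300 bases in all) were searched for its core, GAAANNGAAA, on both strands. Windows were given for 25 of the 36 members, and 11 of these 25 (44.0%) held the core, against 1079 of all 27025 genes with a window (3.99%). The gamma-activated site TTCNNNGAA, searched on both strands, stood in 4 of the 25 (16%) and in 9.55% of all genes. The motif search used letters only, and overlapping matches were each counted as a match. The stretches below lie upstream of 6 members, read 5′ to 3′ on the gene's own strand, with each match in capitals; a match reading TTTC at both ends is the core on the other strand. Isg15, Ifit1 and Rsad2 are shown because they carry much of what follows, Slfn8 because it holds the core and fell under imiquimod, and Trim30a and Trim30d because they show how alike such gene copies can be.
Isg15: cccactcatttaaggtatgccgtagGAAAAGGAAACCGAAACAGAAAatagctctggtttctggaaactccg
Ifit1: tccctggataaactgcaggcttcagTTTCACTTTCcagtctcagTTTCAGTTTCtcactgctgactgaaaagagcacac
Rsad2: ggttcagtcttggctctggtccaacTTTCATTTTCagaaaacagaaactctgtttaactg
Slfn8: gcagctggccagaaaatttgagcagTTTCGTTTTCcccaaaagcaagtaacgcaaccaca
Trim30a: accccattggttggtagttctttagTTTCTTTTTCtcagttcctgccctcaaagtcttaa
Trim30d: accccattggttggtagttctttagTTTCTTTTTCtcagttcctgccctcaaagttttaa
In Isg15 (chr4:156200850-156200921, minus strand) 3 matches overlap and the nearest ends 57 bases before the start. In Ifit1 (chr19:34640760-34640838, plus strand) the nearer of 2 matches ends 76 bases before it. The single match ends 111 bases before the start of Rsad2 (chr12:26456538-26456597, minus strand) and 39 bases before one annotated start of Slfn8 (chr11:83020824-83020883, minus strand). The stretches of Trim30a (chr7:104465195-104465254, minus strand) and Trim30d (chr7:104507856-104507915, minus strand) share 59 of 60 bases. Among members with a window, 6 of the 12 that rose in WT spleen under imiquimod and 2 of the 4 that fell held the core. Members of the Ifit, Trim30, Slfn, Phf11 and Ifi200 families have near-identical copies whose reads the counting could split, so their single values are uncertain. The annotated spans of Parp9 and Dtx3l also overlap on chromosome 16.

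Padi2 in both tissues and Padi4 in spleen followed the labels, and Padi4 in 2 lymph nodes did not. Padi2 was at 0.425 to 1.2 RPKM in the 10 Pad2-/- libraries and at 3.65 RPKM or more in the 20 others. Padi4 was at 0.0693 to 0.259 RPKM in Pad4-/- spleens and at 1.2 RPKM or more in the other spleens. In the lymph node, replicates 1 and 2 labelled Pad4-/- held 0.0958 and 0.131 RPKM of Padi4, but replicates 3 and 4 held 0.607 and 1.17 RPKM, against 0.952, 0.869, 1.05 and 0.679 RPKM in WT, so the group is called "labelled Pad4-/-" throughout. Between 10905 and 11332 genes reached 1 RPKM in a spleen library and between 11483 and 12198 in a lymph node library, and no 2 libraries held the same values. Checked against the labelled tissues, no B or T cell marker was at 0 in any library, with summed levels of 9 B cell and 10 T cell markers of 537 RPKM or more and 332 RPKM or more. The spleens under imiquimod also held more RNA of other cell types: in WT, all 12 monocyte and macrophage, all 11 neutrophil and all 11 erythroid markers rose and all 9 B cell and 10 T cell markers fell. Over all genes, 40.3% rose and 33.2% fell there. In whole tissue, fewer cells of a type and less RNA per cell cannot be told apart.

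The 36 genes spanned a wide range of levels. In WT control spleen, 6 members had a mean under 1 RPKM, 13 lay between 1 and 10, 16 between 10 and 100, and 1, Ly6e, a surface protein that restricts viral entry, was at 505 RPKM. The mean of log2(RPKM + 0.5) over the 36 members, a measure of level, was 2.92, 2.84 and 2.89 in the 3 WT control spleens. It was 2.95, 3.08 and 2.89 in Pad2-/- control spleens and 2.83, 2.87 and 2.83 in Pad4-/- control spleens. WT overlapped both mutants, while every Pad2-/- control was above every Pad4-/- control, in a band from 2.83 to 3.08 in all.

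Under imiquimod the mean level was 3.35, 4.02 and 3.10 in WT, 3.48, 3.26 and 3.31 in Pad2-/- and 3.41, 3.13 and 3.46 in Pad4-/- spleens. Every imiquimod spleen was above every control spleen, and replicate 2 of WT stood above the other 8 imiquimod spleens. The group means of control and imiquimod spleens were 2.88 ± 0.040 and 3.49 ± 0.48 in WT, 2.97 ± 0.10 and 3.35 ± 0.11 in Pad2-/- and 2.84 ± 0.021 and 3.33 ± 0.18 in Pad4-/- (SD, n = 3). Without replicate 2 of WT, the WT difference was 0.34 in place of 0.61 on the log2 scale. Over all tested genes the same mean lay between 3.14 and 3.21 in control and between 3.23 and 3.41 in imiquimod spleens.

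**Figure D1:**
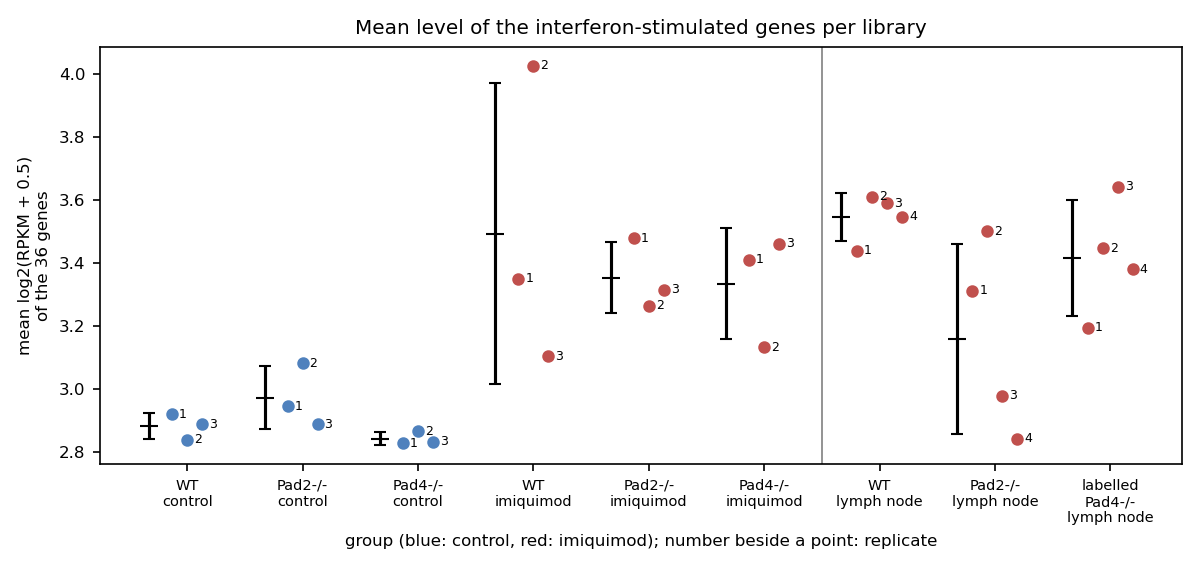
Mean log2(RPKM + 0.5) of the 36 genes in each library (vertical axis) by group (horizontal axis), with the replicate number beside each point and the group mean ± SD as a bar at the left. All 9 imiquimod spleens lie above all 9 control spleens, WT replicate 2 is the highest at 4.02, and Pad2-/- lymph node replicates 3 and 4 are the lowest of the lymph nodes at 2.98 and 2.84.

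Under imiquimod the members did not move as 1 block. In WT spleen, 17 of the 33 members tested rose and 5 fell (limma on log2(RPKM + 0.5), adjusted p under 0.05 over 11982 genes). These are 51.5% and 15.2% of the members tested, beside 40.3% and 33.2% of all genes. In Pad2-/- spleen 11 rose and 7 fell (33.3% and 21.2%), beside 36.3% and 36.7% of all genes, and in Pad4-/- spleen 12 rose and 5 fell (36.4% and 15.2%), beside 33.9% and 36.1%. The share of members that rose was near that of all genes in Pad2-/- and Pad4-/-, and in WT it was above it only with imiquimod replicate 2: without that library, 36.4% of members and 40% of all genes rose. The share of members that fell was below that of all genes in each genotype, a gap that was not tested. The median log2 change over the 36 members was 0.29 in WT, 0.021 in Pad2-/- and 0.22 in Pad4-/-, and over all tested genes 0.065, -0.020 and -0.037. Mx2, Trim30d and Ifi44 were too low to be tested in spleen, and Ifit1 was tested through its imiquimod libraries, since no control spleen reached 1 RPKM. Ifit1 is among the members counted as rising in each genotype. Phf11d, counted as rising in WT, was also tested through its imiquimod libraries, since among control spleens only Pad2-/- replicate 2 reached 1 RPKM. The members that rose in all 3 genotypes were Ifit1, Ifit3, Isg20, Cmpk2, Ifitm3, Isg15, Parp12, Ifi204 and Lgals3bp. Those that fell in all 3 were Samd9l, Slfn8, Parp10, Ifi203 and Sp100. No member rose in one genotype and fell in another.

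These splits moved with the scaling and with single libraries. After quantile normalization, which shifted the median change of all genes by -0.20 in WT and -0.11 in Pad2-/-, 12 members rose and 10 fell in WT and 9 rose and 9 fell in Pad2-/-, beside 32.3% and 45% of all genes in WT and 31.2% and 44.8% in Pad2-/-. After rescaling without haemoglobin and immunoglobulin genes, with shifts of -0.28, -0.22 and -0.26, the counts were 13 and 11 in WT, 9 and 15 in Pad2-/- and 11 and 12 in Pad4-/-, of 34 members then tested, while 28.2%, 27% and 22.9% of all genes rose and 47.5%, 48.7% and 51.6% fell. With array weights they were 13 and 14 in Pad2-/- (39.4% and 42.4%), beside 42.8% and 45.6% of all genes. In WT, 11 members rose and all 5 fell under each of the 4 scalings tried, the 11 being Cmpk2, Ifi204, Ifi27l2a, Ifit3, Ifitm3, Isg20, Lgals3bp, Parp12, Rsad2, Rtp4 and Usp18. Ifit1, Ifit2, Isg15, Mx1, Phf11b and Phf11d missed the threshold in WT under at least 1 of the scalings. In Pad2-/-, 9 rose and 6 fell under each scaling, without Ifit1, Usp18 and Parp14, and in Pad4-/- 10 rose and 5 fell, without Ifit1 and Ifi204. The share of all genes called under each of the 4 scalings was not computed, so these counts do not set the members apart. Without replicate 2 of the WT imiquimod spleens, 12 rose and 9 fell, and Ifit1, Ifit2, Isg15, Phf11d and Rtp4 no longer passed (adjusted p 0.0716 to 0.253).

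**Figure D2:**
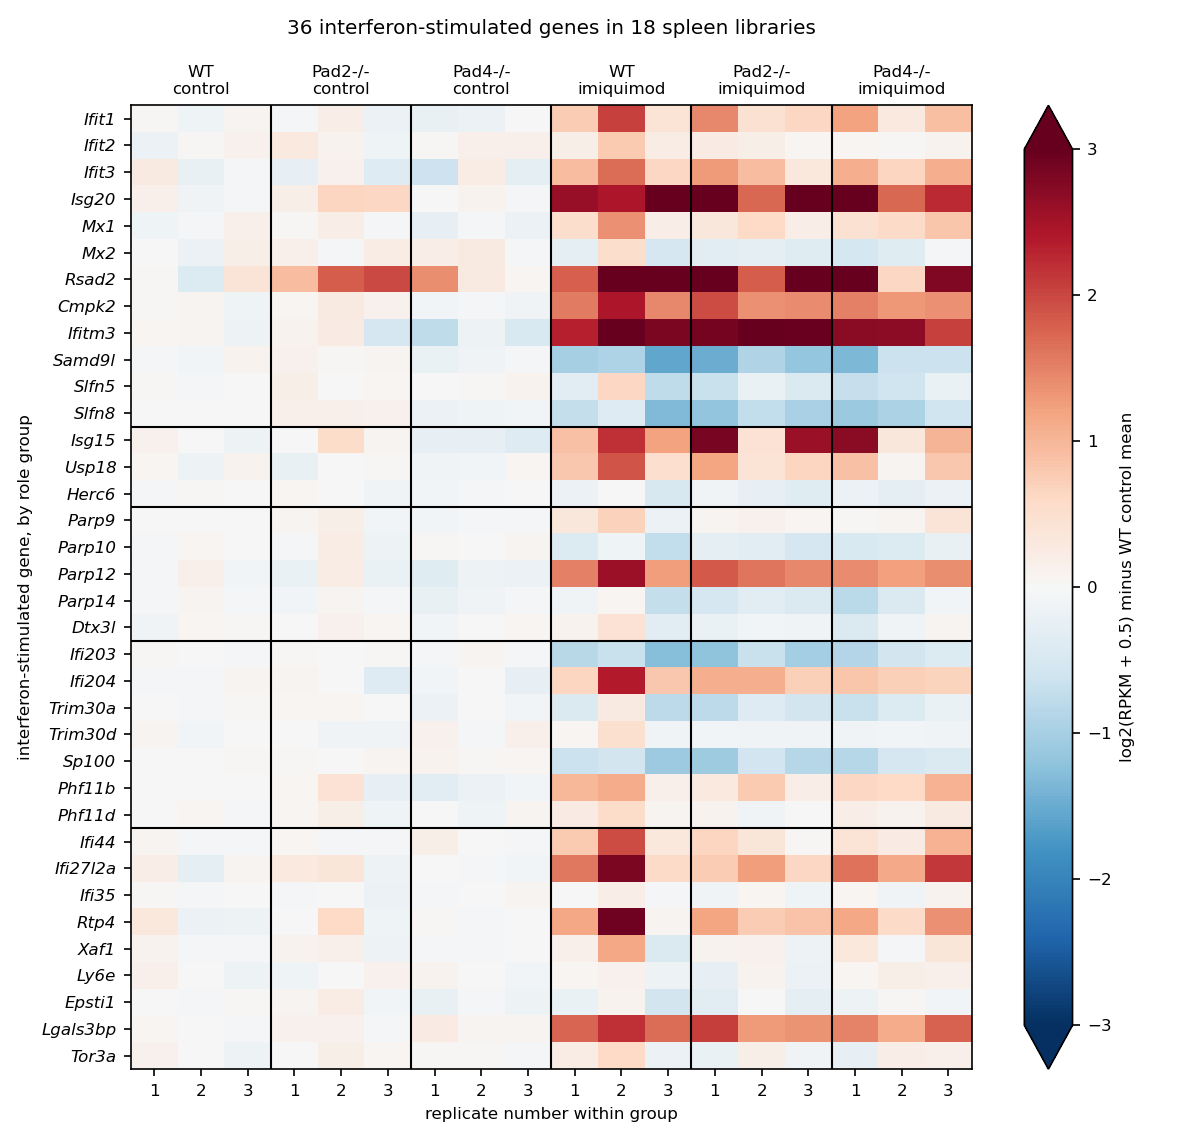
Each cell gives a member's log2(RPKM + 0.5) minus the mean of the 3 WT control spleens, with members in rows by role group and the 18 spleen libraries in columns by group and replicate. The control columns are pale, the imiquimod columns hold both red rows such as Ifitm3 and Isg20 and blue rows such as Samd9l and Sp100, and WT imiquimod replicate 2 is the reddest column.

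Among the antiviral effectors, 8 of the 11 tested rose and 2 fell in WT, with 6 and 2 in both Pad2-/- and Pad4-/-. Of all genes, 40.3% rose and 33.2% fell in WT, 36.3% and 36.7% in Pad2-/- and 33.9% and 36.1% in Pad4-/-. The WT rises include Ifit1, Ifit2 and Rsad2, whose calls were lost without single libraries. Ifitm3, a membrane protein that blocks the fusion of viruses in endosomes, showed the largest change in each genotype. It was at 32, 32.6 and 27.8 RPKM in WT control and 156, 509 and 221 RPKM in WT imiquimod spleens. In Pad2-/- spleens it went from 33.3, 36.3 and 21.6 to 228, 265 and 245 RPKM, and in Pad4-/- spleens from 17.9, 27.8 and 22.2 to 205, 200.3 and 128 RPKM. Every imiquimod spleen exceeded every control spleen. The log2 fold change of RPKM + 0.5 was 3.06 ± 0.32 in WT, 3.03 ± 0.32 in Pad2-/- and 2.93 ± 0.32 in Pad4-/- (SE, adjusted p 7.53e-07, 1.18e-06 and 1.97e-06).

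Rsad2 encodes viperin, an enzyme that makes a chain-terminating nucleotide against viral polymerases. Its level was 1.88, 1.25 and 2.53 RPKM in WT control and 7.61, 20.9 and 31.5 RPKM in WT imiquimod spleens. In Pad2-/- it was 3.9, 7.63 and 8.62 RPKM in controls and 125, 7.64 and 105 RPKM under imiquimod. In Pad4-/- it was 5.65, 2.3 and 1.92 RPKM in controls and 81, 3.06 and 15.4 RPKM under imiquimod. The imiquimod spleens were 40.7-fold apart, and the Pad2-/- and Pad4-/- groups overlapped their controls. The log2 change was 2.93 ± 1.02 in WT and 2.79 ± 1.02 in Pad2-/- (SE, adjusted p 0.0174 and 0.0227), and 2.26 ± 1.02 in Pad4-/- did not pass (adjusted p 0.0593). In WT the call was lost without imiquimod replicate 3 or control replicate 2 (adjusted p 0.067 and 0.0524), and in Pad2-/- without imiquimod replicate 1 or 3 or control replicate 1 (0.106, 0.0945 and 0.074).

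Isg20, an exonuclease that degrades viral RNA, measured 44.2, 39.3 and 59 RPKM in WT, 137, 24 and 92.4 RPKM in Pad2-/- and 84.4, 23.7 and 34.2 RPKM in Pad4-/- imiquimod spleens, against 6.29 to 11 RPKM in the 9 controls. Again every imiquimod spleen was above every control. On the log2 scale it rose by 2.69 ± 0.49 in WT, 2.73 ± 0.49 in Pad2-/- and 2.48 ± 0.49 in Pad4-/- (SE, adjusted p 0.000154, 0.000147 and 0.000389). Cmpk2, a mitochondrial nucleotide kinase whose gene neighbours Rsad2 on chromosome 12, rose by 1.81, 1.43 and 1.48 in the same order (adjusted p 1.1e-06, 1.4e-05 and 1.29e-05). Cmpk2 was 2.27-fold apart over the 9 imiquimod spleens, far less than Rsad2.

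Ifit1 and Ifit3 belong to a family that binds foreign RNA and stops its translation. Ifit1 was at 0.611, 0.493 and 0.657 RPKM in WT control and 1.33, 3.99 and 0.941 RPKM in WT imiquimod spleens. In Pad2-/- it moved from 0.553, 0.75 and 0.467 to 2.42, 0.986 and 1.17 RPKM and in Pad4-/- from 0.431, 0.463 and 0.58 to 2.02, 0.837 and 1.52 RPKM. Ifit1 thus stayed low, with no overlap between control and imiquimod spleens of a genotype. The log2 changes were 1.07 ± 0.35, 0.84 ± 0.35 and 0.94 ± 0.35 in WT, Pad2-/- and Pad4-/- (SE, limma, adjusted p 0.0111, 0.0395 and 0.0243). Ifit1 entered the test only through its imiquimod spleens, so these p-values are no support for a rise. Each call was lost without 1 library or more, among them imiquimod replicate 2 in WT (adjusted p 0.0716), replicate 1 in Pad2-/- (0.193) and replicate 1 in Pad4-/- (0.107). Without control replicate 1 or 3 the Pad2-/- adjusted p was 0.0829 and 0.105, and without imiquimod replicate 3 or control replicate 1 or 2 the Pad4-/- adjusted p was 0.0597, 0.0619 and 0.0565.

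Ifit3 was at 1.37, 0.845 and 1.01 RPKM in WT control and 2.47, 4.49 and 1.88 RPKM in WT imiquimod spleens. In Pad2-/- it was 0.817, 1.19 and 0.69 RPKM and 3.3, 2.48 and 1.46 RPKM, and in Pad4-/- 0.523, 1.32 and 0.776 RPKM and 2.81, 1.94 and 2.8 RPKM. Again control and imiquimod spleens did not overlap within a genotype, and the rise passed in all 3, by 1.07 ± 0.29, 1.02 ± 0.29 and 1.16 ± 0.29 (SE, adjusted p 0.00355, 0.00504 and 0.00223). Ifit2, another member of the family, changed by 0.39 in WT (adjusted p 0.0219), 0.069 in Pad2-/- (0.672) and -0.043 in Pad4-/- (0.796). The Ifit2 call in WT was lost without imiquimod replicate 2 or control replicate 1 (adjusted p 0.145 and 0.097).

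Mx1 is a GTPase that blocks influenza virus in the nucleus, and most inbred laboratory strains carry a defective copy. It measured 0.849, 0.943 and 1.13 RPKM in WT control and 1.63, 3.3 and 1.19 RPKM in WT imiquimod spleens. The Pad2-/- values were 1.0, 1.19 and 0.942 and 1.35, 1.72 and 1.18 RPKM, and the Pad4-/- values 0.746, 0.937 and 0.812 and 1.51, 1.69 and 2.11 RPKM. Only the Pad2-/- groups overlapped. Mx1 rose by 0.70 ± 0.22 in WT and 0.76 ± 0.22 in Pad4-/- (SE, adjusted p 0.00891 and 0.00586), and its change of 0.30 ± 0.22 in Pad2-/- did not pass (adjusted p 0.219). Mx2 stayed between 0.336 and 1.25 RPKM in all spleens.

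The effectors that fell were Samd9l, a growth suppressor that restricts poxviruses, and Slfn8, a Schlafen protein. Samd9l was at 56.1, 54.9 and 62.3 RPKM in WT control and 28.7, 30.3 and 19.3 RPKM in WT imiquimod spleens. Its log2 change was -1.16 ± 0.19 in WT, -1.27 ± 0.19 in Pad2-/- and -0.76 ± 0.19 in Pad4-/- (SE, adjusted p 4.84e-05, 2.23e-05 and 0.00201). Slfn8 changed by -0.81, -1.11 and -0.76 (adjusted p 0.000908, 5.99e-05 and 0.00162). In both genes every imiquimod spleen was below every control spleen of its genotype. Slfn5 changed by -0.16, -0.50 and -0.55 and did not pass (adjusted p 0.554, 0.0708 and 0.0519).

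Of the ISG15 pathway, Isg15, a ubiquitin-like protein that is attached to other proteins, rose in all 3 genotypes. It was at 8.38, 7.65 and 6.78 RPKM in WT control and 14.3, 36.5 and 18.2 RPKM in WT imiquimod spleens. In Pad2-/- it was 7.68, 11.3 and 8.04 RPKM in controls and 57.8, 10.4 and 48.5 RPKM under imiquimod. In Pad4-/- it was 6.31, 6.32 and 5.66 RPKM in controls and 52, 9.73 and 15.9 RPKM under imiquimod. In Pad2-/- spleen, imiquimod replicate 2 lay among the controls while replicates 1 and 3 were far above them. The log2 changes were 1.43 ± 0.58, 1.74 ± 0.58 and 1.65 ± 0.58 (SE, adjusted p 0.0364, 0.0133 and 0.0191). In WT the call did not hold without imiquimod replicate 2 or 3 or any control replicate (adjusted p 0.151, 0.0531, 0.0596, 0.0706 and 0.0854). In Pad2-/- it did not hold without imiquimod replicate 1 or 3 (0.0735 and 0.061), nor in Pad4-/- without imiquimod replicate 1 (0.129). Isg15 lies 15.2 Mb from Padi2 on chromosome 4.

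Usp18, which removes ISG15 from proteins and dampens the interferon receptor, was at 2.42, 2.02 and 2.53 RPKM in WT control and 4.46, 9.88 and 3.48 RPKM in WT imiquimod spleens. In Pad2-/- it was 1.93, 2.29 and 2.37 and 5.86, 3.21 and 3.88 RPKM, and in Pad4-/- 2.13, 2.16 and 2.44 and 4.64, 2.48 and 4.41 RPKM. Control and imiquimod spleens did not overlap in any genotype. It rose by 1.07 ± 0.29 in WT and 0.80 ± 0.29 in Pad2-/- (SE, adjusted p 0.00359 and 0.0204), and 0.62 ± 0.29 in Pad4-/- did not pass (adjusted p 0.0645). The Pad2-/- call was lost without imiquimod replicate 1 or control replicate 1 (adjusted p 0.103 and 0.0633). Herc6, the mouse ligase that attaches ISG15, changed by -0.22, -0.22 and -0.16 and did not pass (adjusted p 0.0622, 0.0597 and 0.167).

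Among the PARP-family genes, which attach ADP-ribose to proteins, Parp12 rose and Parp10 fell in all 3 genotypes. Parp12, an inhibitor of viral translation, went from 1.18, 1.44 and 1.17 to 4.55, 9.97 and 3.72 RPKM in WT, a log2 change of 1.78 ± 0.24 (SE, adjusted p 8.17e-06). Its changes in Pad2-/- and Pad4-/- were 1.69 and 1.57 (adjusted p 1.68e-05 and 3.99e-05). Parp10 changed by -0.43, -0.39 and -0.39 (adjusted p 0.00746, 0.0133 and 0.0135), and lost its call in Pad2-/- without imiquimod replicate 3 or control replicate 2 (0.0594 and 0.0778) and in Pad4-/- without imiquimod replicate 1 (0.0529). Parp14, a large protein that binds ADP-ribose, was at 14.5, 16 and 14.8 RPKM in WT control and 14, 15.7 and 9.03 RPKM in WT imiquimod spleens. It was at 14.2, 16 and 14.5 and 10.5, 11.7 and 11.1 RPKM in Pad2-/- and at 12.8, 14 and 14.7 and 8.46, 11.1 and 14.2 RPKM in Pad4-/-. The groups overlapped except in Pad2-/-, where Parp14 fell (-0.40, adjusted p 0.0464), a call lost without any 1 of the 6 libraries compared (adjusted p 0.0557 to 0.126). Parp9 and Dtx3l, which act as a pair, did not pass in any genotype, with changes between -0.18 and 0.28.

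The PYHIN, TRIM and nuclear proteins split. Ifi204, a sensor of foreign DNA, was at 1.19, 1.19 and 1.34 RPKM in WT control and 2.2, 8.49 and 2.53 RPKM in WT imiquimod spleens. It was at 1.34, 1.22 and 0.833 and 3.17, 3.19 and 2.35 RPKM in Pad2-/- and at 1.13, 1.25 and 0.973 and 2.59, 2.34 and 2.25 RPKM in Pad4-/-. No groups of a genotype overlapped, and it rose by 1.27 ± 0.31, 1.07 ± 0.31 and 0.84 ± 0.31 (SE, adjusted p 0.00172, 0.00598 and 0.0245). The Pad4-/- call was lost without imiquimod replicate 1 or control replicate 1 or 3 (adjusted p 0.067, 0.0508 and 0.0701). Its relative Ifi203 moved the other way, from 23.1, 22.7 and 21.6 to 12.4, 13.9 and 8.94 RPKM in WT, by -0.93 ± 0.15 (SE, adjusted p 5.28e-05), and fell in Pad2-/- and Pad4-/- with changes of -0.98 and -0.60 (adjusted p 3.45e-05 and 0.0025).

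Sp100, a scaffold of nuclear bodies, fell, with changes of -0.75, -0.88 and -0.67 (adjusted p 0.000173, 4.75e-05 and 0.0006). Phf11b, a PHD-finger protein, rose by 0.76 in WT and 0.95 in Pad4-/- (adjusted p 0.00678 and 0.00163), with 0.34 in Pad2-/- (0.18). Its neighbour Phf11d, at 0.901, 0.95 and 0.843 RPKM in WT control and 1.16, 1.54 and 0.973 RPKM in WT imiquimod spleens, passed in WT at adjusted p 0.0497 with a log2 change of 0.29 ± 0.13 (SE). Phf11d was at 0.951, 1.08 and 0.782 and 0.997, 0.803 and 0.895 RPKM in Pad2-/- and at 0.886, 0.778 and 0.968 and 1.1, 1.0 and 1.19 RPKM in Pad4-/-, where it did not pass (0.804 and 0.141). Its WT call was lost without imiquimod replicate 1 or 2 or any control replicate (adjusted p 0.0655, 0.253, 0.0891, 0.0684 and 0.124). Among control spleens only Pad2-/- replicate 2, at 1.08 RPKM, reached the filter of 1 RPKM. Phf11d thus entered the test through its imiquimod spleens, so its p-values are no support for a rise. Trim30a, an inhibitor of TLR signalling, passed in Pad2-/- with -0.61 (adjusted p 0.00961), beside -0.32 in WT (0.145) and -0.33 in Pad4-/- (0.128).

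Of the further genes, Lgals3bp, a secreted glycoprotein, went from 12.4, 11.8 and 11.2 to 40.6, 55.3 and 38.6 RPKM in WT and rose by 1.86 ± 0.19, 1.5 ± 0.19 and 1.31 ± 0.19 in the 3 genotypes (SE, adjusted p 6.43e-07, 7.12e-06 and 3.02e-05). Ifi27l2a, a small hydrophobic membrane protein, was at 32.9, 23.2 and 30.3 RPKM in WT control and 86.3, 205 and 43 RPKM in WT imiquimod spleens. It was at 35.1, 36.6 and 25.8 and 48.4, 69 and 43.9 RPKM in Pad2-/- and at 28.5, 27.4 and 27 and 89.4, 62.8 and 125 RPKM in Pad4-/-. All imiquimod spleens exceeded the controls of their genotype, with WT replicate 2 and Pad4-/- replicate 3 the highest. The changes of 1.66 ± 0.39 in WT and 1.67 ± 0.39 in Pad4-/- passed (SE, adjusted p 0.00135 and 0.00152), and 0.71 ± 0.39 in Pad2-/- did not (0.117). Rtp4, a receptor chaperone, changed by 1.39 in WT (adjusted p 0.0144, 0.0744 without imiquimod replicate 2), 0.78 in Pad2-/- (0.145) and 1.03 in Pad4-/- (0.0606).

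Ly6e, the member with the highest level in control spleens, was at 561, 501 and 453 RPKM in WT control and 525, 553 and 456 RPKM in WT imiquimod spleens. It was at 464, 511 and 553 and 427, 542 and 445 RPKM in Pad2-/- and at 539, 505 and 473 and 525, 571 and 561 RPKM in Pad4-/-. The groups overlapped in each genotype and the log2 changes of 0.020 ± 0.11, -0.11 ± 0.11 and 0.13 ± 0.11 did not pass (SE, adjusted p 0.877, 0.355 and 0.302). Slfn5, Herc6, Parp9, Dtx3l, Ifi35, Xaf1, Epsti1 and Tor3a likewise passed in none of the 3 genotypes. Ifi44, too low to test, was at 0.489, 1.74 and 0.221 RPKM in WT imiquimod spleens and at 0.0528 to 0.151 RPKM in all 9 controls.

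**Figure D3:**
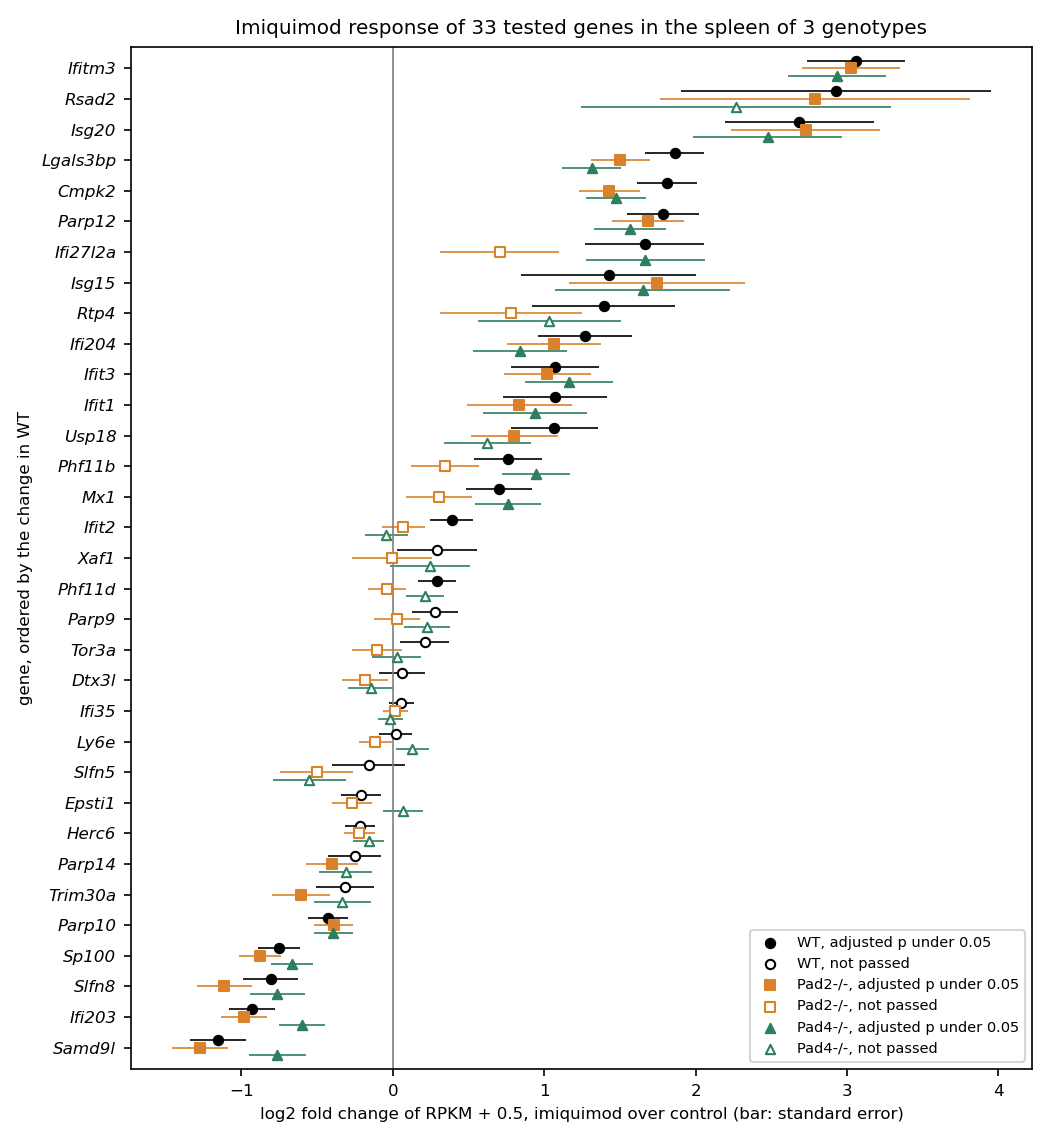
Log2 fold change of RPKM + 0.5 between imiquimod and control spleens (horizontal axis, bar: standard error) for the 33 members tested, ordered by the change in WT; filled symbols passed at adjusted p under 0.05. Ifitm3, Rsad2 and Isg20 lead in WT at 3.06, 2.93 and 2.69, Samd9l lies lowest among the WT values at -1.16, and Rsad2 has the longest error bars.

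The imiquimod spleens differed widely among themselves. The pooled within-group SD of log2(RPKM + 0.5) was larger under imiquimod than in controls for all 36 members, with a median of 0.358 against 0.109; the same held for 92.7% of all tested genes. WT replicate 2 was the highest of the 9 imiquimod spleens in 29 members (26 of the 33 tested, beside 11.2% of all tested genes), Pad2-/- replicate 1 in 3 (Rsad2, Isg20 and Isg15), and Pad4-/- replicates 2 and 3 in 2 each. The imiquimod spleens therefore did not share 1 order.

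Rsad2 ran with the erythroid markers. The summed RPKM of 11 erythroid markers, haemoglobin genes among them, was 72462 and 64408 in Pad2-/- replicates 1 and 3, 40691.5 in Pad4-/- replicate 1 and 24539.9 in WT replicate 3. It was 8555 and 8056 in WT replicate 2 and Pad4-/- replicate 3, 6318 and 5688 in WT replicate 1 and Pad2-/- replicate 2, and 2711 in Pad4-/- replicate 2. Rsad2 was 125, 105, 81, 31.5, 20.9, 15.4, 7.61, 7.64 and 3.06 RPKM in that order of libraries, so its order differed from that of the marker sum only in 1 neighbouring pair with nearly equal Rsad2. Isg20 and Isg15 were also highest in the 3 libraries richest in erythroid markers, but Isg15 was next highest in WT replicate 2, at 36.5 RPKM. Control spleens had erythroid sums of 1347 to 6444 and Rsad2 between 1.25 and 8.62 RPKM, both highest in a Pad2-/- control. The part of erythroid RNA in the Rsad2, Isg20 and Isg15 values was not tested.

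Without the 3 imiquimod spleens richest in erythroid markers, a choice made after seeing the data, 11 members passed in the Pad2-/- response, 7 upward and 4 downward, and 14 in Pad4-/-, that is 33.3% and 42.4% of members beside 63.2% and 68.6% of all genes. That leaves 1 Pad2-/- imiquimod spleen, which the fit assumes to vary like the other groups.

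Ifitm3 instead ran beside the monocyte and macrophage markers and the neutrophil markers. The summed RPKM of the 12 monocyte and macrophage markers was highest in WT replicate 2 at 5463 and lowest in Pad4-/- replicate 3 at 1583, and Ifitm3 was highest in the first at 509 RPKM and lowest in the second at 128 RPKM. The summed RPKM of the 11 neutrophil markers was highest and lowest in the same libraries, at 26894.5 and 4274. Control spleens had sums of 276 to 630 for the first list and 436 to 2579 for the neutrophil list, and Ifitm3 of 17.9 to 36.3 RPKM. Ifi27l2a, Rtp4 and Ifi44 followed none of these lists: each was highest in WT replicate 2 and second highest in Pad4-/- replicate 3. The members that fell did so beside the fall of B cell markers, whose summed RPKM over 9 genes was 2722 to 3205 in control and 611 to 1740 in imiquimod spleens, with none of the 9 at 0. The part of these cell types in the members' values was not tested.

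**Figure D4:**
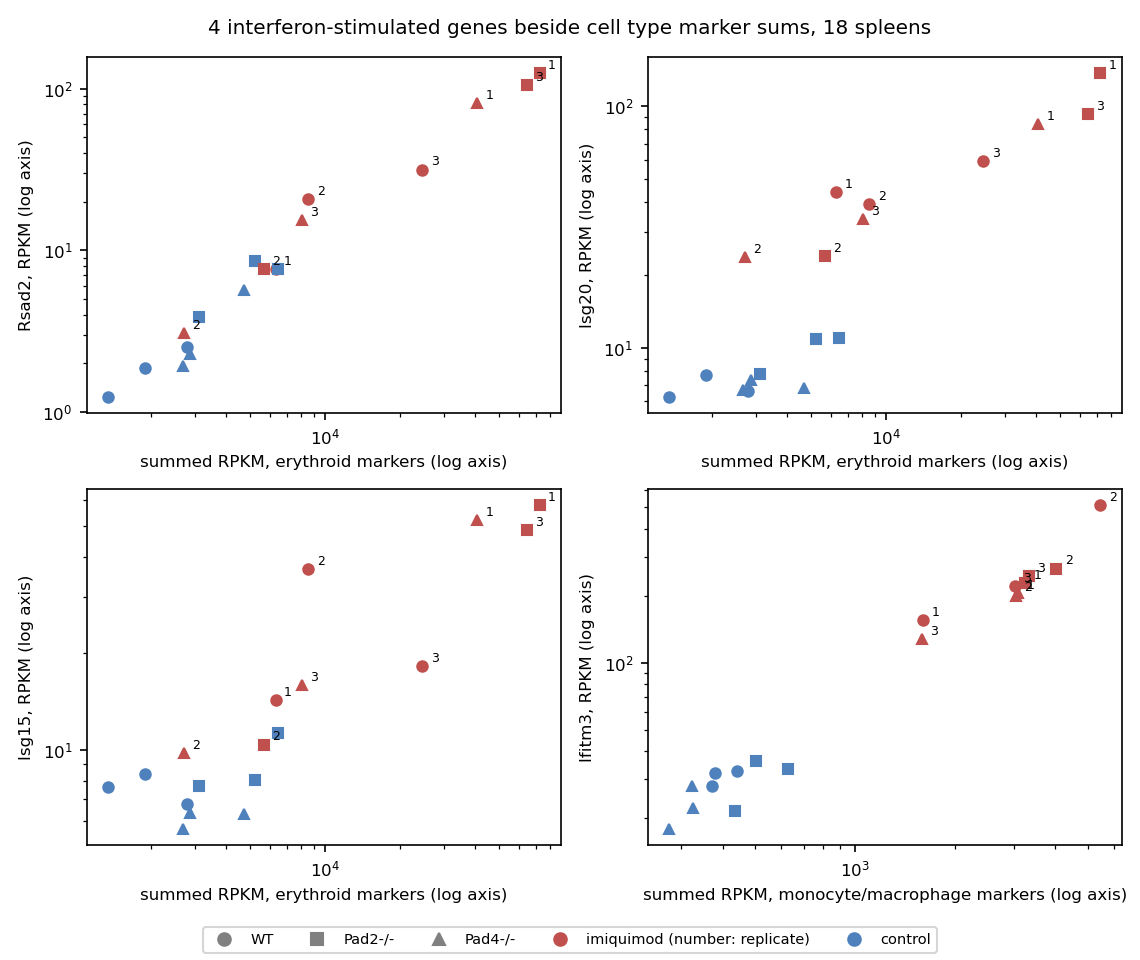
RPKM of 4 members (vertical log axes) against the summed RPKM of erythroid markers (Rsad2, Isg20, Isg15) or of monocyte and macrophage markers (Ifitm3; horizontal log axes) in the 18 spleens, with colour for treatment, shape for genotype and the replicate number beside the imiquimod spleens. Rsad2 climbs along the erythroid sum from 1.25 to 125 RPKM, and Ifitm3 separates control spleens (17.9 to 36.3 RPKM) from imiquimod spleens (128 to 509 RPKM).

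Genes of the pathway upstream of the members both rose and fell. None of the 18 type I interferon genes listed was tested, the highest single value being 0.306 RPKM in spleen and 0.298 RPKM in lymph node. Of 18 sensing genes, 6 rose and 10 fell in WT, 4 and 11 in Pad2-/- and 5 and 10 in Pad4-/-. Over all genes, 40.3% rose and 33.2% fell in WT, 36.3% and 36.7% in Pad2-/- and 33.9% and 36.1% in Pad4-/-. Ifih1, a sensor of double-stranded RNA, rose by 1.42 in WT, and Ikbke, Mavs and Tlr3 fell, with changes of -1.11, -0.69 and -0.90 (adjusted p 4.52e-07, 3.6e-06, 3.81e-06 and 5.11e-06). The same 4 genes moved the same way in Pad2-/- and Pad4-/-, by 1.1, -1.06, -0.71 and -0.99 and by 1.03, -1.19, -0.53 and -0.76.

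Of 15 receptor and signal genes, 5 rose and 6 fell in WT, 3 and 7 in Pad2-/- and 5 and 7 in Pad4-/-. The shares of all genes were again 40.3% and 33.2%, 36.3% and 36.7%, and 33.9% and 36.1%. The receptor chain Ifnar1 fell, with changes of -0.67, -0.51 and -0.57, and Ifnar2 rose by 0.60, 0.67 and 0.52 in WT, Pad2-/- and Pad4-/-. Jak1 fell, with changes of -0.85, -0.80 and -0.72. Irf3 fell in WT (-0.57) and Pad4-/- (-0.53), and Stat2 in Pad2-/- (-0.89).

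Of 40 other interferon-stimulated genes, 37 were tested, and 18 rose and 7 fell in WT, 16 and 10 in Pad2-/- and 19 and 9 in Pad4-/-. Beside them, 40.3% of all genes rose and 33.2% fell in WT, 36.3% and 36.7% in Pad2-/- and 33.9% and 36.1% in Pad4-/-. As among the members, relatives moved in opposite directions: in WT the antiviral RNA synthetase gene Oas1a rose by 2.4 and Oas1b fell with a change of -1.19 (adjusted p 3e-06 and 1.77e-06). Ifitm2, a neighbour and relative of Ifitm3, rose by 3.23, 3.19 and 2.82. Shisa5 fell in WT (-1.12) and Pad2-/- (-1.08), Helz2 in Pad2-/- (-1.65), and Oas1b in Pad2-/- (-1.13) and Pad4-/- (-1.0). In Pad4-/-, Ifitm6 rose by 3.32 and Oas1a by 2.23. Markers of plasmacytoid dendritic cells, a main source of type I interferon, fell in 7 of 10 genes in each genotype while 3 rose in WT, 2 in Pad2-/- and 3 in Pad4-/-, with sums of 852 to 1079 RPKM in control and 293 to 618 RPKM in imiquimod spleens and no marker at 0. The highest single marker value was 833, 801 and 665 RPKM in WT, Pad2-/- and Pad4-/- control spleens, and 310, 362 and 427 RPKM under imiquimod. Such a sum can therefore rest largely on 1 marker. Bst2 is on both this list and that of the other interferon-stimulated genes.

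The loss of Pad2 or Pad4 was asked first of the control spleens. No member passed in Pad2-/- against WT or in Pad4-/- against WT (limma), beside 0.142% and 0.15% of all genes called. At unadjusted p under 0.05 there were 0 of 33 members in both, beside 1.96% and 6.69% of all genes. The 2 comparisons share the WT spleens. The fit shares its spread over all spleen groups, and the median within-group SD of the members was 0.109 in control and 0.358 in imiquimod spleens. Control differences were therefore judged against a spread wider than that of the controls, which limits what this test can show. The smallest p in Pad2-/- were those of Rsad2, Isg20 and Ifi35, with differences of 1.57 ± 1.02, 0.48 ± 0.49 and -0.071 ± 0.083 (SE, adjusted p 1 for each). In Pad4-/- they were those of Ifitm3, Epsti1 and Parp12, with -0.45 ± 0.32, -0.14 ± 0.13 and -0.23 ± 0.24 (SE, adjusted p 0.804, 0.876 and 0.894). With only the compared groups in the fit, Isg15 passed in Pad4-/- against WT, with a difference of -0.29 ± 0.077 (SE, adjusted p 0.0394), 1 of 30 members tested (3.33%) beside 13.8% of all genes.

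Between imiquimod spleens too, no member passed in either mutant, beside 0.484% of all genes in Pad2-/- and 7.27% in Pad4-/- against WT (limma). At unadjusted p under 0.05 there was 1 member (3.03%) in each, beside 15.6% and 23.8% of all genes. Again both comparisons share the WT spleens. The shared spread of the fit also takes in the control spleens, whose libraries lay closer together. In Pad2-/-, 31 of 36 members had a lower mean than in WT, and in Pad4-/- 29 of 36, with medians of -0.22 and -0.13 beside -0.060 and -0.041 over all tested genes. The smallest p in Pad2-/- were those of Phf11d, Ifi27l2a and Ifit2, with -0.29 ± 0.13, -0.79 ± 0.39 and -0.23 ± 0.14 (SE, adjusted p 0.276, 0.356 and 0.475). In Pad4-/- they were those of Ifit2, Lgals3bp and Ifi203, with -0.32 ± 0.14, -0.41 ± 0.19 and 0.32 ± 0.15 (SE, adjusted p 0.181, 0.214 and 0.215). Of the other lists, Mb21d1, which encodes the DNA sensor cGAS, was lower in Pad4-/-, as was Eif2ak2, the RNA-activated kinase PKR, with differences of -0.40 ± 0.11 and -0.59 ± 0.16 (SE, adjusted p 0.0384 and 0.0357).

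In the mean level over all members, the lower values of the mutants rested on 1 WT library. This need not hold for each single member. The mean level of the members was 0.14 lower in Pad2-/- and 0.16 lower in Pad4-/- than in WT, but 0.13 higher and 0.11 higher without WT replicate 2. With array weights, which give an outlying library less weight, 6 members passed in Pad2-/- against WT: Isg15, Isg20 and Rsad2 were higher, by 1.39, 0.97 and 2.88, and Ifi27l2a, Lgals3bp and Phf11b lower, with differences of -0.91, -0.46 and -0.58 (adjusted p 0.0104 to 0.0421). This is 18.2% of members, below the 23% of all genes that passed with these weights. The higher 3 are those that ran beside the erythroid markers, whose sum was highest in Pad2-/- replicates 1 and 3. In Pad4-/-, Ifi203 passed with array weights (0.46, adjusted p 0.0307), 3.03% of members beside 8.7% of all genes. Without the 3 spleens richest in erythroid markers, Ifi203, Samd9l and Isg20 passed in Pad4-/- against WT, with 0.45, 0.51 and -0.71 (adjusted p 0.0355, 0.0299 and 0.0253), 9.09% of members beside 18.8% of all genes.

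The response itself was then compared between genotypes. No member passed the test for a different imiquimod response in Pad2-/- or in Pad4-/- than in WT, beside 0.0334% and 0.0668% of all genes (limma interaction terms). So members such as Ifit2, Phf11d and Rtp4, which passed in WT and not in the mutants, are not shown to differ in response. At unadjusted p under 0.05 there were 0 members in Pad2-/- and 1 in Pad4-/- (3.03%), beside 7.81% and 14.4% of all genes. The smallest p in Pad2-/- were those of Phf11d, Ifi27l2a and Ifit2, with differences in response of -0.33 ± 0.18, -0.96 ± 0.56 and -0.32 ± 0.20 (SE, adjusted p 0.698, 0.728 and 0.75). In Pad4-/- they were those of Ifit2, Lgals3bp and Ifi203, with -0.43 ± 0.20, -0.55 ± 0.28 and 0.33 ± 0.21 (SE, adjusted p 0.339, 0.38 and 0.541). With array weights, Ifi27l2a passed in Pad2-/-, with -1.19 ± 0.35 (SE, adjusted p 0.0359), 3.03% of members beside 14.5% of all genes. The standard errors of these differences ran from 0.12 to 1.45 over the members, with the longest for Rsad2.

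In the lymph node, where all libraries came from mice given imiquimod, the mean level of the members was 3.44, 3.61, 3.59 and 3.55 in the 4 WT libraries. It was 3.31, 3.50, 2.98 and 2.84 in Pad2-/- and 3.19, 3.45, 3.64 and 3.38 in the libraries labelled Pad4-/-. The group values were 3.55 ± 0.077 in WT, 3.16 ± 0.30 in Pad2-/- and 3.42 ± 0.19 in the group labelled Pad4-/- (SD, n = 4), and both mutant ranges overlapped that of WT. Pad2-/- replicates 3 and 4 were the lowest libraries.

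In Pad2-/- against WT lymph node no member passed (limma over 12285 genes; 0 of 33 tested), beside 0.464% of all genes. At unadjusted p under 0.05 there were 18 members, all lower, which is 54.5% of those tested beside 11.9% of all genes in either direction. The means of 33 of the 36 members were lower, the exceptions being Isg20, Ifitm3 and Ifi204, with a median of -0.39 beside -0.12 over all tested genes. Quantile normalization and median-ratio scaling raised the median of all genes by 0.10 and 0.12, and the mean level of the members was then lower by 0.29 and 0.27 in place of 0.39. All 4 Pad2-/- libraries lay below all 4 WT libraries in 8 members, beside 4.74% of all genes, and above them in 0, beside 2.25%. These 8 were Ifit3, Isg15, Parp14, Dtx3l, Rtp4, Xaf1, Ly6e and Tor3a.

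Ifit3 had the smallest p. It was at 3.1, 3.92, 3.95 and 3.93 RPKM in WT and 1.99, 2.62, 2.1 and 1.47 RPKM in Pad2-/- lymph nodes, a difference of -0.74 ± 0.19 (SE, adjusted p 0.156). Parp14 was at 19.8, 20.8, 17.3 and 16.1 RPKM in WT and 14.6, 15.4, 10.8 and 10.1 RPKM in Pad2-/-, with -0.54 ± 0.16 (SE, adjusted p 0.212). Ly6e was at 461, 512, 546 and 519 RPKM in WT and 429.6, 448, 293 and 307 RPKM in Pad2-/-, with -0.49 ± 0.15 (SE, adjusted p 0.25). In these 3 genes the Pad2-/- libraries were below the WT libraries without overlap, with replicate 4 lowest in Ifit3 and Parp14 and replicate 3 lowest in Ly6e.

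Isg15 was at 12.8, 11, 10.8 and 10.6 RPKM in WT and 8.69, 9.98, 10.5 and 7.62 RPKM in Pad2-/- lymph nodes. Usp18 was at 9.33, 10.4, 11 and 10.7 RPKM in WT and 9.02, 9.71, 6.25 and 4.8 RPKM in Pad2-/-. Isg15 did not overlap between the groups, though its nearest libraries almost met, and Usp18 overlapped. Mx1 was at 2.46, 2.99, 3.91 and 3.19 RPKM in WT and 2.61, 3.4, 1.01 and 0.737 RPKM in Pad2-/-, and Ifit1 at 1.68, 1.89, 2.05 and 2.27 and 1.3, 1.89, 0.992 and 1.05 RPKM. Phf11d was at 1.7, 2.21, 2.39 and 2.27 and 1.83, 2.21, 1.37 and 1.42 RPKM and Ifi27l2a at 38.7, 53.1, 48.4 and 73.5 and 36.6, 59.7, 35.7 and 20.3 RPKM. In Mx1, Ifit1 and Phf11d, Pad2-/- replicate 2 lay in the WT range and replicates 3 and 4 were the lowest of the 8 libraries.

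Epsti1, named after its values were seen because its standard error was the longest of the members in lymph node, was at 41.8, 96.5, 117 and 122 RPKM in WT and 45.5, 105, 29.2 and 19.4 RPKM in Pad2-/-. Ifitm3 was not lower, at 128, 154, 168 and 180.5 RPKM in WT and 165, 171, 161 and 170.1 RPKM in Pad2-/-. Ifi204 was at 3.67, 4.9, 5.02 and 5.56 RPKM in WT and 5.11, 5.13, 4.39 and 5.77 RPKM in Pad2-/-. Rsad2, so high in some spleens, was at 1.05, 0.902, 0.663 and 0.559 RPKM in WT and 0.434, 0.706, 0.637 and 0.503 RPKM in Pad2-/- lymph nodes. It was too low to be tested there, as were Mx2 and Trim30d.

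The lower Pad2-/- values went with cell type markers. Replicates 3 and 4 were below all WT libraries in 32 and 33 members, replicate 1 in 22 and replicate 2 in 10. Over all tested genes the shares below all WT libraries were 55.2%, 71.8%, 22% and 11.8% in replicates 3, 4, 1 and 2, against 90.9%, 90.9%, 60.6% and 27.3% of the 33 tested members. Replicates 3 and 4 were also the lowest lymph nodes in the mean level over all tested genes, at 3.08 and 2.94 beside 3.23 to 3.30 in WT. The 9 B cell markers summed to 736 and 537 RPKM in replicates 3 and 4, against 932 and 1182 in replicates 1 and 2 and 1038 to 1430 in WT. The 11 neutrophil markers summed to 6246, 5669 and 4109 RPKM in replicates 3, 4 and 1, against 827 in replicate 2 and 186 to 654 in WT, and no marker of either list was at 0. The part of these cells in the members' values was not tested. Over replicates 1 and 2 alone, 31 members were still lower than in WT, with a median of -0.13, and over replicates 3 and 4 the median was -0.64. The mean level over all tested genes was 3.31 and 3.32 in replicates 1 and 2, beside 3.23 to 3.30 in WT. With array weights Ifit3 passed, with a difference of -0.68 ± 0.14 (SE, adjusted p 0.0444), 1 of 33 members beside 0.667% of all genes.

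Of the other lists, Oasl1 was lower in Pad2-/- lymph node, with a difference of -1.15 ± 0.16, and Ifitm6 higher, with 3.1 ± 0.45 (SE, adjusted p 0.0116 and 0.0119). Apart from these, no gene of the sensing, receptor and signal or other interferon-stimulated lists passed. Of the 40 other interferon-stimulated genes, 37 were lower in the mean, with a median of -0.34 beside -0.12 over all tested genes. Irf7, the factor that amplifies interferon production, differed by -0.60 and did not pass (adjusted p 0.161).

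**Figure D5:**
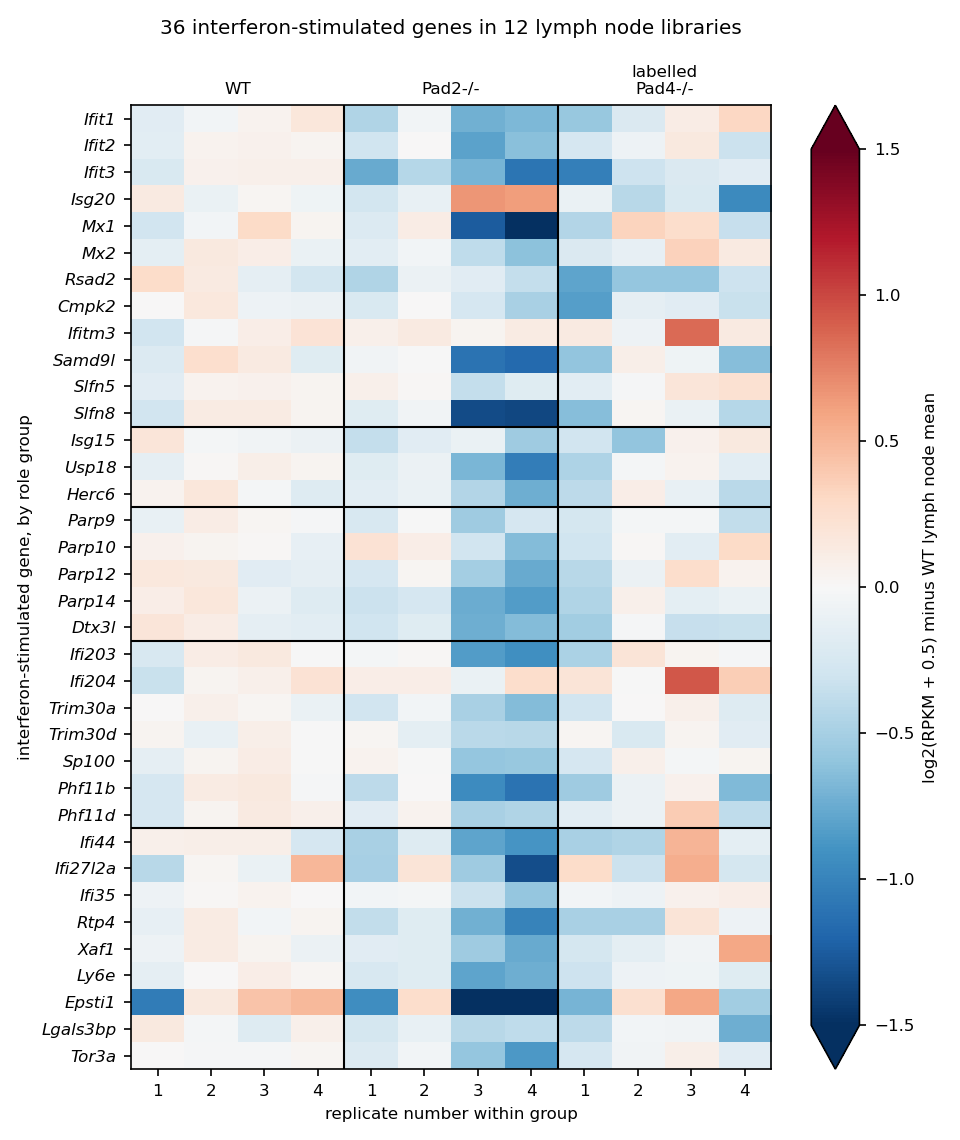
Each cell gives a member's log2(RPKM + 0.5) minus the mean of the 4 WT lymph nodes, with members in rows by role group and the 12 lymph node libraries in columns. Pad2-/- replicates 3 and 4 are blue in all but a few rows, with Isg20 red, while the libraries labelled Pad4-/- are mixed.

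In the lymph nodes labelled Pad4-/-, no member passed against WT (limma), beside 0.00814% of all genes. At unadjusted p under 0.05 there were 2 of 33 members (6.06%), beside 3.95% of all genes. The means of 29 of the 36 members were lower, with a median of -0.11 beside 0.0023 over all tested genes. Replicates 1, 2, 3 and 4 were below all WT libraries in 78.8%, 27.3%, 12.1% and 48.5% of the tested members. Over all tested genes these shares were 24.2%, 13.4%, 30.2% and 33.5%. The libraries lay below all WT libraries without overlap in 2 tested members, Isg20 and Cmpk2, and in Rsad2, which was not tested, beside 1.03% of all tested genes, and above in 0, beside 1.98%. The smallest p were those of Cmpk2, Ifit3 and Ifi204, with -0.37 ± 0.16, -0.43 ± 0.19 and 0.37 ± 0.18 (SE, adjusted p 1 for each). Cmpk2 was at 3.37, 3.79, 3.16 and 3.1 RPKM in WT and 1.67, 2.99, 2.93 and 2.55 RPKM in the libraries labelled Pad4-/-. Ifit3 was at 1.56, 2.88, 3.12 and 3.25 RPKM and Ifi204 at 5.47, 4.72, 9.46 and 6.28 RPKM in the latter. Replicate 3, whose Padi4 value was just below the lowest WT value, was the highest of the 12 lymph nodes in 11 members. Over replicates 1 and 2 alone, where Padi4 was low, the mean level of the members was 0.23 below WT, against 0.13 over all 4, and again no member passed. In Pad2-/- lymph nodes, replicates 1 and 2 alone had a mean level 0.14 below WT. Both lymph node comparisons share the WT libraries.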

How the data were processed

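PolyA-selected RNA of 18 spleens and 12 lymph nodes was sequenced on a HiSeq 3000, per the labels' protocols. Per the submitters' processing notes, bcl2fastq 1.17.1, TopHat2 2.1.0 and the build mm10 were used; how reads were assigned to genes is not given in the sources used here. Both deposited tables hold RPKM, reads scaled by gene length and by the mapped reads of the library. They hold no counts, so depth is unknown and counting error could not be stated. Groups follow the treatment and genotype labels; the extract protocol mentions imiquimod-treated mice alone, but by their own treatment labels 9 spleens are controls.

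RPKM was taken as log2(RPKM + 0.5). Genes with 1 RPKM or more in 3 spleen or 4 lymph node libraries entered the tests of limma 3.58.1 (R 4.3.3; trended empirical Bayes, 1 fit per tissue over all its groups, Benjamini-Hochberg adjustment over all genes tested, threshold 0.05), so 11982 genes were tested in spleen and 12285 in lymph node. The fit was tested on simulated data. Standard errors are those of limma, and a fold change of a low gene is understated by the 0.5 added. The 2 tables were fitted apart, and no test crosses them. Alternatives were 0.1 or 1 in place of 0.5, a filter of 5 RPKM or none, quantile, median-ratio and haemoglobin- and immunoglobulin-free scaling, array weights, only the groups compared in the fit, the replicate number as a block, and leaving out replicates.

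The members and all gene lists were chosen with earlier results of these data known. Named with values in each library are Isg15, Usp18, Ifit1, Ifit3, Rsad2, Mx1, Ifi27l2a, Ifitm3, Ly6e, Ifi204, Parp14 and Phf11d. For each comparison, the 4 largest rises and 4 largest falls among members that passed are named, all if 5 or fewer passed, and the 3 smallest p if none did, with up to 4 passing genes of each pathway list by smallest p, and Padi2 and Padi4. Library values of Isg20, Cmpk2, Samd9l, Parp12, Ifi203, Lgals3bp and Ifi44, and members named beyond the rule, were added after their values were seen. Promoter stretches come from RefSeq on GRCm38.p6. The listed genes Mnda, Pyhin1, Ahsp and Ighd are not used here. Set tests, correlations of members with cell type markers and read-level checks were left out.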

Additional observations from a re-analysis of the deposited data

Results flagged for a closer look

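Within the lymph node groups of 4 libraries, 1 library stood apart from its own group in 4 of 111 group values examined (36 members and their mean level in 3 groups) (Dixon's 95% criterion on the gap to the nearest library as a share of the range); chance flags about 1 in 20 groups. All 4 were the lowest library of the WT group. WT replicate 1 held 4.05 RPKM of Ifit2 against 4.74 to 4.83 in the other 3 libraries, 3.10 RPKM of Ifit3 against 3.92 to 3.95, and 15.3 RPKM of Slfn5 against 17.8 to 18.1. WT replicate 4 held 0.879 RPKM of Ifi44 against 1.23 to 1.24. No member passed the test for a different imiquimod response between genotypes.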

How the results depend on the processing

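The depth of the libraries is unknown, and 3 or 4 libraries a group limit what a test can show. Of the 663 settings applied to 41 named member results, 591 kept direction and side of the threshold, 72 kept direction but no longer passed, and 0 reversed. In the WT response 14 members passed with a filter of 5 RPKM, at which 23 were tested (60.9%, beside 74.6% of all genes). Without the 3 spleens richest in erythroid markers, 11 passed in the Pad2-/- response and 3 in Pad4-/- against WT under imiquimod, beside 63.2% and 18.8% of all genes. With only the compared groups in the fit, 1 member passed in Pad4-/- against WT controls, beside 13.8% of all genes. With array weights, 6 passed in Pad2-/- and 1 in Pad4-/- against WT under imiquimod, 1 in the difference of the Pad2-/- and WT responses, and 1 in Pad2-/- against WT lymph node; over all genes 23%, 8.7%, 14.5% and 0.667% passed there, and the cause was not tested. Leaving out 1 replicate gave 19 to 23 members in WT, 14 to 19 in Pad2-/- and 13 to 20 in Pad4-/- responses, and 0 in each other comparison. In the main fit of the responses, 40.3% of all genes rose and 33.2% fell in WT. The shares were 36.3% and 36.7% in Pad2-/- and 33.9% and 36.1% in Pad4-/-. The rises therefore do not set the members apart from all genes. Of the members tested, 15.2% fell in WT, 21.2% in Pad2-/- and 15.2% in Pad4-/-, below the shares of all genes, a gap that was not tested. Same-numbered libraries correlated between -0.478 and 0.402 and no comparison had every pair above 0.1, so the main fit assumed no pairing by number. So few correlations cannot exclude a pairing. With a replicate block, 21, 19 and 18 members passed in the 3 responses and 0 elsewhere. The share of all genes that passed with this block is not given here, so these counts do not set the members apart. Without Pad2-/- lymph nodes 3 and 4, or lymph nodes 3 and 4 labelled Pad4-/-, 0 passed.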
